A study of Homo sapiens with 6 samples.

Results

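The 134 genes described here carry the symbols of the ubiquitin-proteasome machinery: 47 proteasome genes (PSM followed by A to G), 35 genes whose symbol starts with UBE2, the ubiquitin-conjugating enzymes or E2s, and 52 genes whose symbol is USP followed by a digit, the ubiquitin-specific proteases. They were taken by symbol alone from the 37879 gene-level targets of an Illumina human BeadChip, which reads labelled RNA with gene-specific probes attached to beads. A few symbols caught by this rule are not such enzymes or subunits, such as PSMC3IP, whose product binds a proteasome ATPase, and UBE2MP1, a pseudogene. The samples were HEK293T cells, a transformed human embryonic kidney line, held in prometaphase with 50 ng/ml Nocodazole, a microtubule poison, for 15 h by the labels (the study's methods give a longer time). The control IP cells (n = 3 arrays) were transfected with an empty vector and the Stau1 IP cells (n = 3 arrays) with plasmids coding for Stau155-FLAG, a tagged isoform of the RNA-binding protein Staufen1, so that the bait was an introduced protein next to the cells' own Stau1. Both groups went through the same anti-FLAG immunoprecipitation, and the arrays read the RNA that came down with it. The comparison asks which transcripts were recovered more with Stau1 than with the empty vector. RNA from the cells before precipitation was not analysed here, so a difference in recovery and a difference in the transcript's level in the cells cannot be told apart. The labels do not say whether the 3 replicates came from separate cultures, so p-values measure only the spread between these arrays.

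Ubiquitin is passed from an activating enzyme (E1) to an E2 and then, with a ligase (E3), to a substrate, and chains of ubiquitin send many substrates to the 26S proteasome. That particle has a 20S core of alpha and beta rings, the beta rings holding the cutting sites, and a 19S cap whose ATPases unfold the substrate and whose other subunits bind and release ubiquitin. Ubiquitin-specific proteases take ubiquitin off again. In mitosis the ligase APC/C, with its own E2s, marks cyclins and other regulators for this route.

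Of the 134 genes, 76 were detected on all 6 arrays (detection p-value under 0.05), 103 on at least 3 and 23 on none. The number detected per array lay between 85, on Stau1 IP 2, and 105, on Stau1 IP 1. Some targets missed the detection threshold in spite of their signal: PSMD12, UBE2A, UBE2V2, USP4 and USP42 had signals above 2 times the highest negative-control median on every array but were detected on fewer than 3. Stau1 IP 2 stood apart from its group, and control IP 2 was about as close to Stau1 IP 1 and 3 as to the other controls. Over the 76 genes detected everywhere, Pearson's r between Stau1 IP 1 and Stau1 IP 3 was 0.996, and that of Stau1 IP 2 with them was 0.951 and 0.946. With control IP 1, 2 and 3, Stau1 IP 2 correlated at 0.957, 0.953 and 0.982, so it was clearly closer to control IP 3 only. Control IP 2 correlated with Stau1 IP 1 and 3 at 0.988 and 0.985 and with the other controls at 0.985 and 0.984. Between control IP 1 and control IP 3 Pearson's r was 0.98. Signals are given as deposited, before normalisation, in the order of replicates 1 to 3, whereas fold changes, overlaps between groups and the order of the arrays were read on the normalised log2 values. Values of the arrays numbered 2 are given singly, and each comparison is given with all 6 arrays by their labels and without both of them. As checks, NEFL, NEFM, VIM, KRT8 and KRT18, which HEK293T cells express, were detected on all 6 arrays, and PTPRC, CD3E, ALB and HBB on 0, whereas INS, listed as absent, was detected on 4. STAU1 itself had signals of 2499, 3246 and 2758 in control IP and 2845, 1857 and 3130 in Stau1 IP (log2 fold change -0.15, SE 0.16, adjusted p = 0.879), and whether its probe reads the introduced transcript was not tested.

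With all 6 arrays, no member met the threshold of the methods (a fold over 2.5 and an unadjusted p under 0.05) in either direction. Over all targets this threshold called 1 target enriched (0.00264%) and 0 depleted (0%). The transformation made changes of dim targets come out too small, so a fold of 2.5 was harder for them to reach. On simulated arrays, falls of targets detected on all 6 arrays came out too small as well. None of the 134 had a Benjamini-Hochberg adjusted p under 0.05 by limma, against 1 target of all (0.00264%), and the methods' t-test gave 0 as well. At an unadjusted p under 0.05, 11 members were higher in Stau1 IP (8.21%, against 4.02% of all targets) and 23 were lower (17.2%, against 4.94%). Since the members are detected more often than the array as a whole, the same shares were taken over targets detected on all 6 arrays. There 7 of 76 members were higher (9.21%, against 10.2% of 9884 targets) and 15 were lower (19.7%, against 12.6%). By the methods' t-test, 6 members were higher (4.48%, against 3.66% of all targets) and 14 lower (10.4%, against 4.16%) at an unadjusted p under 0.05. The 3 Stau1 IP values all lay below the 3 control values for 16 of the 76 (21.1%, against 13.1% of targets) and all above them for 7 (9.21%, against 9.87%). Log2 fold changes were negative for 50 of 76 members (65.8%, against 49.4%), with a median of -0.093 against 0.0044 over the 9884 targets.

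Without both arrays numbered 2, 24 members changed at an adjusted p under 0.05 by limma (17.9%, against 7.11% of all targets), 10 of them higher in Stau1 IP (7.46%, against 4%) and 14 lower (10.4%, against 3.11%). Among targets detected on all 6 arrays, the 18 members that changed were 23.7% of 76, near the background of 22.7%, with 6 higher (7.89%, against 12.1%) and 12 lower (15.8%, against 10.6%). None of the 134 passed a fold of 2.5 in this comparison either, while 230 targets were enriched past it (0.607%) and 14 depleted (0.037%). Here too the transformation made changes of dim targets come out too small, which limits what the absence of such calls can show. The 24 calls rest on 2 arrays against 2: the methods' t-test called 0 of them after adjustment, and limma called 0 when either Stau1 IP 1 or Stau1 IP 3 was left out as well. These further fits set 1 array against 2, take their spread from the remaining pair and assume that the lone array varies alike. Without control IP 1 limma called 15 higher and 29 lower, without control IP 3 it called 24 and 39, and the lumi form of the transformation and neqc gave 9 and 3 calls.

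**Figure D1:**
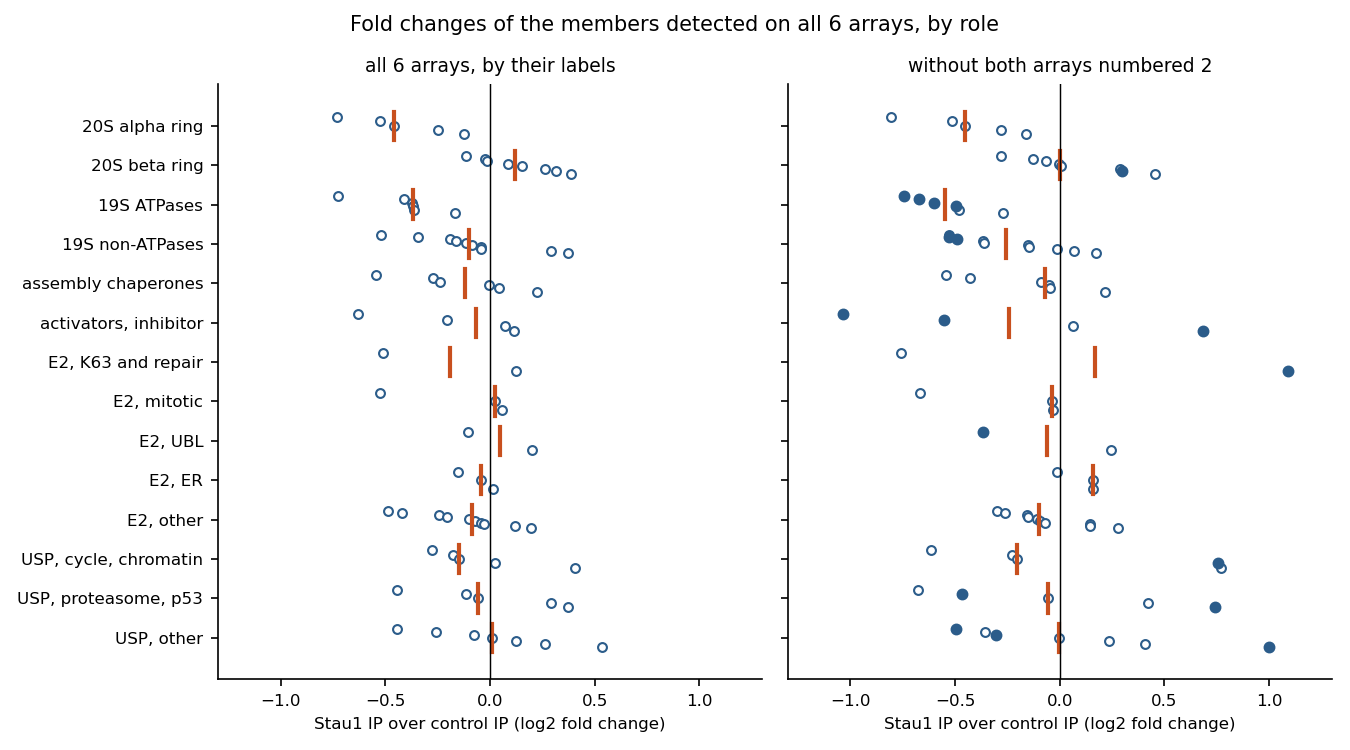
Log2 fold change of Stau1 IP over control IP for the 76 members detected on all 6 arrays, 1 point per gene, by role, with all arrays by their labels (left) and without both arrays numbered 2 (right). Filled points have an adjusted p under 0.05 and orange bars are medians; the 20S alpha ring and the 19S ATPases lie to the left of 0 in both panels, and filled points appear on the right panel only.

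The transcripts of the 20S alpha ring, the subunits that gate entry to the core, had lower values in Stau1 IP for most genes, none past the adjusted test. All 5 alpha genes detected on all 6 arrays had negative log2 fold changes with a median of -0.46, and 5 of the 8 alpha genes on the array were lower at an unadjusted p under 0.05, against 4.94% of all targets and 12.6% of targets detected on all 6 arrays. PSMA3 read 3100, 2378 and 1928 in control IP and 1506, 1325 and 1509 in Stau1 IP (log2 fold change -0.73, SE 0.18, adjusted p = 0.297). PSMA1 read 2470, 2274 and 1682 in control IP and 1421, 945 and 1544 in Stau1 IP (log2 fold change -0.70, SE 0.18, adjusted p = 0.299). In both genes every Stau1 IP array was below every control array. PSMA4 read 6819, 6356 and 4536 in control IP and 3922, 4070 and 4036 in Stau1 IP (log2 fold change -0.53, SE 0.13, adjusted p = 0.302). PSMA2 read 607, 692 and 588 in control IP and 515, 345 and 482 in Stau1 IP (log2 fold change -0.46, SE 0.069, adjusted p = 0.167), with the smallest SE of the named alpha genes. In PSMA6 the difference was smaller, from 7559, 6973 and 5971 in control IP and 5690, 5975 and 5445 in Stau1 IP (log2 fold change -0.25, SE 0.091, adjusted p = 0.51). For these 5 genes Stau1 IP 2 lay on the side of Stau1 IP 1 and 3, and control IP 2 on the side of the other controls. PSMA5 differed by -0.13 (adjusted p = 0.747), PSMA7 was near background with a signal of 107 to 154, and PSMA8, the form of the ring found in testis, was detected on 0 arrays. The 5 alpha genes detected on all 6 arrays had log2 fold changes of up to -0.13, so they are not the same 5 as those listed with signals here. They were negative under each of 5 other transformations and scalings, with and without the arrays numbered 2. Leaving out the background correction, counted among these, gave the same medians and so adds no further check.

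In the beta ring, which forms the same core with the alpha ring, the values ran the other way for some genes and hardly at all for others. Of 10 beta genes, 3 had an unadjusted p under 0.05, all higher in Stau1 IP, and 0 were lower at that level. Over all targets these shares were 4.02% and 4.94%, and over targets detected on all 6 arrays they were 10.2% and 12.6%. PSMB2 read 6131, 7702 and 6962 in control IP and 8284, 8948 and 9358 in Stau1 IP (log2 fold change 0.38, SE 0.075, adjusted p = 0.219). PSMB5, the subunit with the chymotrypsin-like activity, read 4933, 5130 and 4875 in control IP and 5975, 5803 and 6204 in Stau1 IP (log2 fold change 0.26, SE 0.058, adjusted p = 0.259). PSMB3 read 7437, 9110 and 7204 in control IP and 8353, 11399 and 9235 in Stau1 IP (log2 fold change 0.32, SE 0.10, adjusted p = 0.4) and was the sole beta gene that rose without both arrays numbered 2 (log2 fold change 0.30, SE 0.048, adjusted p = 0.0347). In all of these genes the Stau1 IP arrays were above the controls, with no overlap. PSMB1, PSMB4, PSMB6 and PSMB7 had log2 fold changes between -0.12 and 0.08. Of the subunits that replace others in the immunoproteasome, PSMB8 and PSMB9 were detected on 0 arrays, and PSMB10 differed by 0.15 (adjusted p = 0.879). Over the 8 beta genes detected on all 6 arrays the median was 0.12 with all arrays and near 0 (0.00036) without the arrays numbered 2. The difference between the rings was not tested.

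**Figure D2:**
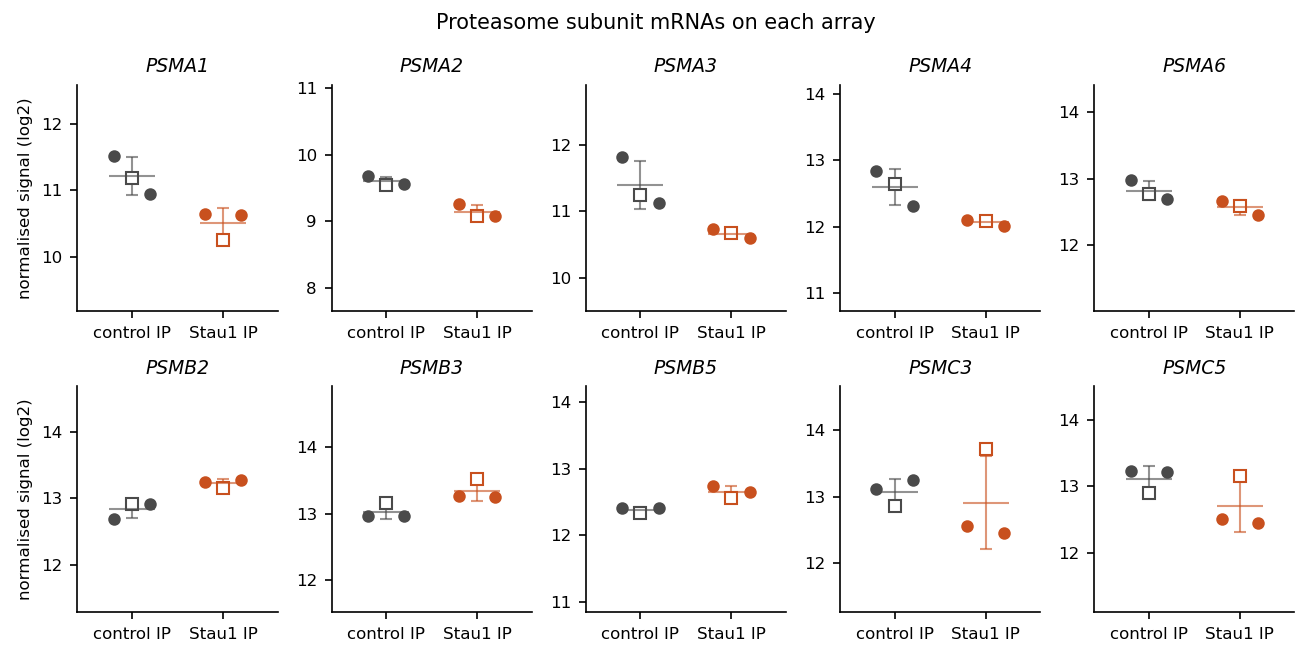
Normalised log2 signal of 10 proteasome subunit genes on each array, control IP in grey and Stau1 IP in orange, with replicates 1 to 3 from left to right, open squares for the arrays numbered 2, and bars for the mean with its SD (n = 3); every panel spans the same log2 range. The 5 PSMA genes drawn sit lower on all Stau1 IP arrays and the PSMB genes drawn higher. They are the genes of the 2 rings whose groups did not overlap, and the other genes of these rings are not shown. For PSMC3 and PSMC5 Stau1 IP 2 lies with or above the controls.

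The 6 ATPases of the 19S cap, the ring that unfolds substrates, all had negative log2 fold changes. Their median was -0.37 with all arrays and -0.55 without the arrays numbered 2. All were negative under the 5 other transformations and scalings too, of which leaving out the background correction gave the same medians. Without those arrays 4 of the 6 fell at an adjusted p under 0.05: PSMC5, PSMC3, PSMC1 and PSMC2. Of all targets 3.11% fell in that comparison, and 10.6% of those detected on all 6 arrays. Under neqc the members that fell there numbered 2 in place of 14, and under the lumi form the ATPase median with all arrays was -0.70. PSMC5 read 8991, 7600 and 8622 in control IP and 5134, 8854 and 5407 in Stau1 IP, so that Stau1 IP 1 and 3 were below every control and Stau1 IP 2 was among them (log2 fold change -0.41, SE 0.21, adjusted p = 0.662; log2 fold change -0.74, SE 0.053, adjusted p = 0.00647 without both arrays numbered 2). PSMC3 read 8341, 7406 and 8814 in control IP and 5310, 12959 and 5451 in Stau1 IP, with Stau1 IP 2 the brightest of the 6 arrays (log2 fold change -0.67, SE 0.073, adjusted p = 0.0132 without both arrays numbered 2). PSMC1 read 11976, 10294 and 10304 in control IP and 6957, 10708 and 7392 in Stau1 IP (log2 fold change -0.60, SE 0.073, adjusted p = 0.0173 without them). PSMC2 was the ATPase gene of these 4 whose groups did not overlap with all 6 arrays, at 8782, 6556 and 7434 in control IP and 5467, 5928 and 6007 in Stau1 IP (log2 fold change -0.37, SE 0.12, adjusted p = 0.466). PSMC6 also had groups that did not overlap, at 1561, 1451 and 925 in control IP and 901, 430 and 1044 in Stau1 IP (log2 fold change -0.72, SE 0.27, adjusted p = 0.508). PSMC4 varied from 1084 to 2552 among the controls and overlapped (log2 fold change -0.37, SE 0.30, adjusted p = 0.835).

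The other 19S subunits were mixed. Of 11 genes on the array, 10 were detected on all 6 arrays, with 8 negative and 2 positive log2 fold changes. Of the 11, 1 was higher and 1 lower at an unadjusted p under 0.05. Over all targets these shares were 4.02% and 4.94%, and over targets detected on all 6 arrays 10.2% and 12.6%. PSMD6 read 10129, 8262 and 5794 in control IP and 5154, 5646 and 5521 in Stau1 IP (log2 fold change -0.52, SE 0.18, adjusted p = 0.468). PSMD14, the metalloprotease of the cap that cuts ubiquitin from the arriving substrate, read 5534, 4151 and 3349 in control IP and 3547, 3059 and 3384 in Stau1 IP (log2 fold change -0.34, SE 0.18, adjusted p = 0.688), and control IP 3 overlapped the Stau1 IP arrays. PSMD3 read 526, 653 and 700 in control IP and 804, 940 and 835 in Stau1 IP (log2 fold change 0.37, SE 0.15, adjusted p = 0.552). PSMD4, a ubiquitin receptor, and PSMD2, a scaffold subunit of the cap, fell without both arrays numbered 2. Their log2 fold changes were -0.53 (adjusted p = 0.014) and -0.49 (adjusted p = 0.0114) in that comparison, and on Stau1 IP 2 both were brighter than on any control. Among the genes of assembly chaperones, PSMD10 read 4173, 3448 and 2866 in control IP and 2518, 2066 and 2493 in Stau1 IP (log2 fold change -0.54, SE 0.15, adjusted p = 0.338) and PSMD9 read 496, 635 and 613 in control IP and 790, 567 and 759 in Stau1 IP (log2 fold change 0.23, SE 0.073, adjusted p = 0.437). PSMD10 was lower and PSMD9 higher on every Stau1 IP array than on every control.

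Activators and the inhibitor of the core split by gene. PSME1 and PSME2, the subunits of the interferon-inducible 11S cap, fell without both arrays numbered 2, PSME1 being the lowest of all members there. PSME1 read 5718, 4747 and 4583 in control IP and 2361, 5181 and 2807 in Stau1 IP (log2 fold change -0.63, SE 0.29, adjusted p = 0.618; log2 fold change -1.04, SE 0.11, adjusted p = 0.0119 without both arrays numbered 2). PSME2 fell by 0.55 on the log2 scale without those arrays (adjusted p = 0.0338) and differed by -0.21 with them (adjusted p = 0.894). Other regulators of the core went the opposite way. PSMF1, the inhibitor subunit known as PI31, read 1143, 2252 and 1598 in control IP and 3173, 1197 and 3331 in Stau1 IP (log2 fold change 0.51, SE 0.38, adjusted p = 0.809; log2 fold change 1.08, SE 0.13, adjusted p = 0.0181 without both arrays numbered 2). PSME4, the large activator PA200, read 883, 1954 and 1065 in control IP and 1590, 644 and 2065 in Stau1 IP (log2 fold change 0.071, SE 0.37, adjusted p = 0.987; log2 fold change 0.68, SE 0.11, adjusted p = 0.0316 without them). Stau1 IP 2 was below 2 of 3 controls in PSMF1 and below all of them in PSME4, and control IP 2 was the brightest control in both. PSME3, the nuclear activator, differed by 0.11 (adjusted p = 0.907).

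Of the 35 UBE2 genes, 27 were detected on at least 3 arrays. Without both arrays numbered 2, 2 of the 35 rose (UBE2N and UBE2Z) and 1 fell (UBE2F) at an adjusted p under 0.05 by limma. There 4% of all targets rose and 3.11% fell, and 12.1% and 10.6% of targets detected on all 6 arrays. UBE2N, which builds the non-degradative chains of DNA damage and immune signalling, had the highest fold change of all members in that comparison. It read 2109, 4335 and 2578 in control IP and 5276, 968 and 5448 in Stau1 IP, which gave log2 fold change 1.09, SE 0.089, adjusted p = 0.00826 without both arrays numbered 2, and log2 fold change 0.12, SE 0.64, adjusted p = 0.987 with them. Stau1 IP 2 was the dimmest of the 6 arrays, and control IP 2 the brightest control. Its partner UBE2V2, named after its values were seen, read 1044, 909 and 602 in control IP and 490, 400 and 489 in Stau1 IP (log2 fold change -0.77, SE 0.19, adjusted p = 0.299), lower on every Stau1 IP array but called detected on 1 array. The paralogue UBE2V1 was near background (log2 fold change 0.013, adjusted p = 0.969). UBE2Z, which works with the E1 enzyme UBA6, read 419, 699 and 482 in control IP and 974, 469 and 1036 in Stau1 IP (log2 fold change 0.51, SE 0.20, adjusted p = 0.53; log2 fold change 0.82, SE 0.059, adjusted p = 0.00647 without both arrays numbered 2). UBE2F, the E2 of NEDD8 for one set of cullins, fell by 0.37 without them (adjusted p = 0.025).

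None of the E2s that serve APC/C in mitosis passed the adjusted test. UBE2C, which starts chains on APC/C substrates, read 2396, 2578 and 1993 in control IP and 1548, 1887 and 1457 in Stau1 IP (log2 fold change -0.53, SE 0.16, adjusted p = 0.393), all Stau1 IP arrays below the controls. Without both arrays numbered 2 its log2 fold change was -0.67 (adjusted p = 0.057), just short of the threshold. UBE2S, which extends those chains, was detected on 0 arrays, with signals of 75.7 to 116. UBE2D1 was likewise detected on 0 arrays, and its relatives UBE2D2, UBE2D3 and UBE2D4 had log2 fold changes of 0.024, -0.17 and 0.057. Of the 5 mitotic transcripts listed as a check, CCNB1 and PLK1 fell without both arrays numbered 2 by 0.89 and 0.52 (adjusted p = 0.0123 and 0.0474). In that comparison CDC20, AURKA and CCNA2 had log2 fold changes of 0.27, 0.017 and -0.027 (adjusted p = 0.658, 0.974 and 0.968). With all 6 arrays none of the 5 passed the adjusted test, and their part in the values of UBE2C was not tested. UBE2T, an E2 of the Fanconi anaemia repair pathway, read 1223, 1226 and 957 in control IP and 734, 990 and 691 in Stau1 IP (log2 fold change -0.51, SE 0.22, adjusted p = 0.585; log2 fold change -0.76, SE 0.15, adjusted p = 0.0553 without both arrays numbered 2). UBE2E1 and UBE2E2, close paralogues whose probes may share signal, were lower on all Stau1 IP arrays by 0.49 and 0.42 (adjusted p = 0.44 and 0.613). Of the 35 UBE2 genes, 3 had every Stau1 IP array above every control (UBE2J2, UBE2M and UBE2S), and 5 had every one below. Over all targets these shares were 6.66% and 7.76%, and over targets detected on all 6 arrays 9.87% and 13.1%.

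Among the 52 USP genes, 34 were detected on at least 3 arrays, and the member with the smallest p of the 134 by the labels was USP14. USP14, a protease bound to the 19S cap, read 321, 386 and 330 in control IP and 252, 211 and 277 in Stau1 IP, every Stau1 IP array below every control (log2 fold change -0.44, SE 0.038, adjusted p = 0.101). It fell without both arrays numbered 2 (log2 fold change -0.47, SE 0.049, adjusted p = 0.0125), and Stau1 IP 2 lay at 0.991 of the way from the controls 1 and 3 to Stau1 IP 1 and 3. USP8, an endosomal protease, read 155, 188 and 193 in control IP and 118, 119 and 129 in Stau1 IP (log2 fold change -0.45, SE 0.074, adjusted p = 0.18), and USP48 read 178, 184 and 176 in control IP and 152, 132 and 154 in Stau1 IP (log2 fold change -0.26, SE 0.061, adjusted p = 0.279). Both had groups that did not overlap and fell without both arrays numbered 2 (adjusted p = 0.0489 and 0.0411). USP1, the protease of the Fanconi protein FANCD2 and of PCNA, read 383, 474 and 455 in control IP and 363, 165 and 373 in Stau1 IP (log2 fold change -0.59, SE 0.21, adjusted p = 0.499; log2 fold change -0.38, SE 0.07, adjusted p = 0.0465 without them). USP16, a protease of ubiquitinated histone H2A needed for mitosis, read 489, 413 and 327 in control IP and 249, 170 and 248 in Stau1 IP (log2 fold change -0.79, SE 0.17, adjusted p = 0.248). Its log2 fold change was -0.21 under neqc, and it missed the adjusted threshold without both arrays numbered 2 (adjusted p = 0.0969). USP44, named for its role in the mitotic checkpoint, had signals of 89.6 to 113, near background (log2 fold change -0.16, SE 0.046, adjusted p = 0.379).

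With all 6 arrays, every Stau1 IP array lay above every control for 5 USP genes: USP5, USP19, USP20, USP35 and USP9Y. For 9 USP genes every Stau1 IP array lay below every control. Over all targets the shares above and below were 6.66% and 7.76%, and over targets detected on all 6 arrays 9.87% and 13.1%. Another set of USP genes was higher on Stau1 IP 1 and 3 and not on Stau1 IP 2. USP26, known from testis, had the largest rise of them, with signals of 153, 326 and 165 in control IP and 366, 181 and 484 in Stau1 IP (log2 fold change 0.53, SE 0.28, adjusted p = 0.691; log2 fold change 1.00, SE 0.095, adjusted p = 0.0101 without both arrays numbered 2). USP38 read 608, 1109 and 591 in control IP and 1089, 272 and 1399 in Stau1 IP (log2 fold change 0.025, SE 0.48, adjusted p = 0.995; log2 fold change 0.75, SE 0.093, adjusted p = 0.0178 without them). USP7, the protease of p53 and its ligase MDM2, read 286, 634 and 367 in control IP and 594, 345 and 815 in Stau1 IP (log2 fold change 0.37, SE 0.24, adjusted p = 0.76; log2 fold change 0.74, SE 0.14, adjusted p = 0.0487 without them). USP9X, a large protease with many substrates, read 226, 404 and 207 in control IP and 363, 138 and 492 in Stau1 IP (log2 fold change 0.064, SE 0.36, adjusted p = 0.989; log2 fold change 0.62, SE 0.11, adjusted p = 0.0443 without them). In USP38 and USP9X, Stau1 IP 2 was the dimmest of the 6 arrays. USP22, the deubiquitinase of the SAGA coactivator, rose by 0.41 without them (adjusted p = 0.017) at signals of 99 to 171 that were detected on 0 arrays. USP49 read 909, 2069 and 1469 in control IP and 2230, 1392 and 2320 in Stau1 IP and missed the adjusted threshold in both comparisons (log2 fold change 0.77, SE 0.19, adjusted p = 0.108 without both arrays numbered 2). USP4, at 197 to 276, instead fell by 0.52 without them (adjusted p = 0.0226) and was detected on 0 arrays.

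**Figure D3:**
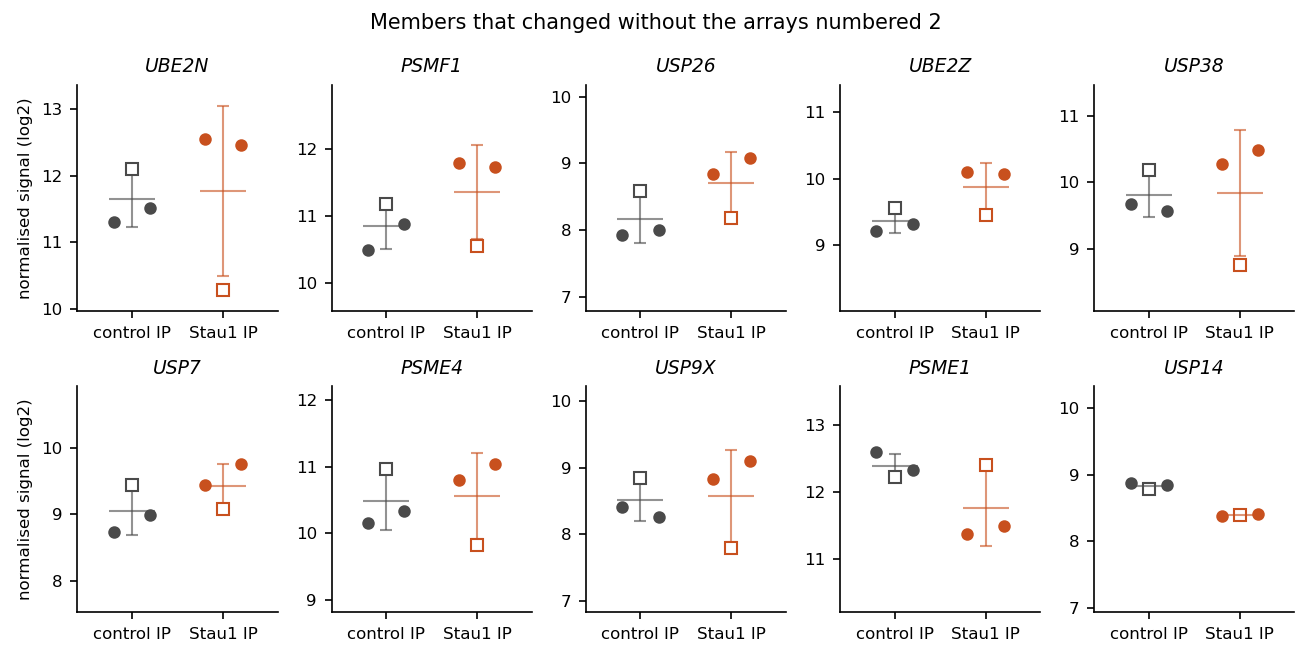
Normalised log2 signal on each array for 10 members that changed without both arrays numbered 2, drawn as in the plot of subunit genes (control IP grey, Stau1 IP orange, open squares for the arrays numbered 2, bars for mean and SD, n = 3, the same log2 range in every panel). For UBE2N, USP38, PSME4 and USP9X the open square of Stau1 IP is the lowest of the 6 values, for PSME1 it lies with the controls, and for USP14 it lies with Stau1 IP 1 and 3.

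The arrays numbered 2 took no part in the fit that gave the 24 members above, although control IP 2 was the reference of the normalisation. Their position was read on a scale where 0 is the mean of control IP 1 and 3 and 1 is the mean of Stau1 IP 1 and 3. Of the 10 members that rose, Stau1 IP 2 lay nearer the controls in 9 (90%, against 82.3% of the 1515 targets that rose), PSMB3 being the exception. Control IP 2 lay nearer Stau1 IP 1 and 3 in 8 (80%, against 57.1%). Among the 14 that fell, Stau1 IP 2 lay nearer the controls in 9 (64.3%, against 67.5% of 1178) and control IP 2 nearer Stau1 IP in 7 (50%, against 47.8%). The 5 that fell with Stau1 IP 2 on the Stau1 side were PSMC2, USP14, USP8, USP48 and USP1. Whether the samples behind control IP 2 and Stau1 IP 2 were exchanged was not tested, and no array was moved between groups. Over the 76 genes the median distance of Stau1 IP 2 from the mean of Stau1 IP 1 and 3 was 0.308 on the log2 scale, with 6 genes over 2-fold, against 0.0966 between Stau1 IP 1 and 3, with 0 genes. Control IP 1 and 3 differed by 0.198. Stau1 IP 2 was about as far from the mean of control IP 1 and 3, at 0.300. Control IP 2 was 0.144 from the mean of the other controls and 0.183 from that of Stau1 IP 1 and 3. Over all 9884 targets the distances of Stau1 IP 2 from its group and between Stau1 IP 1 and 3 were 0.316 and 0.0876. The farthest below were UBE2N (-2.22) and USP38 (-1.62), and the farthest above were USP11 (1.25) and PSMC3 (1.20).

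**Figure D4:**
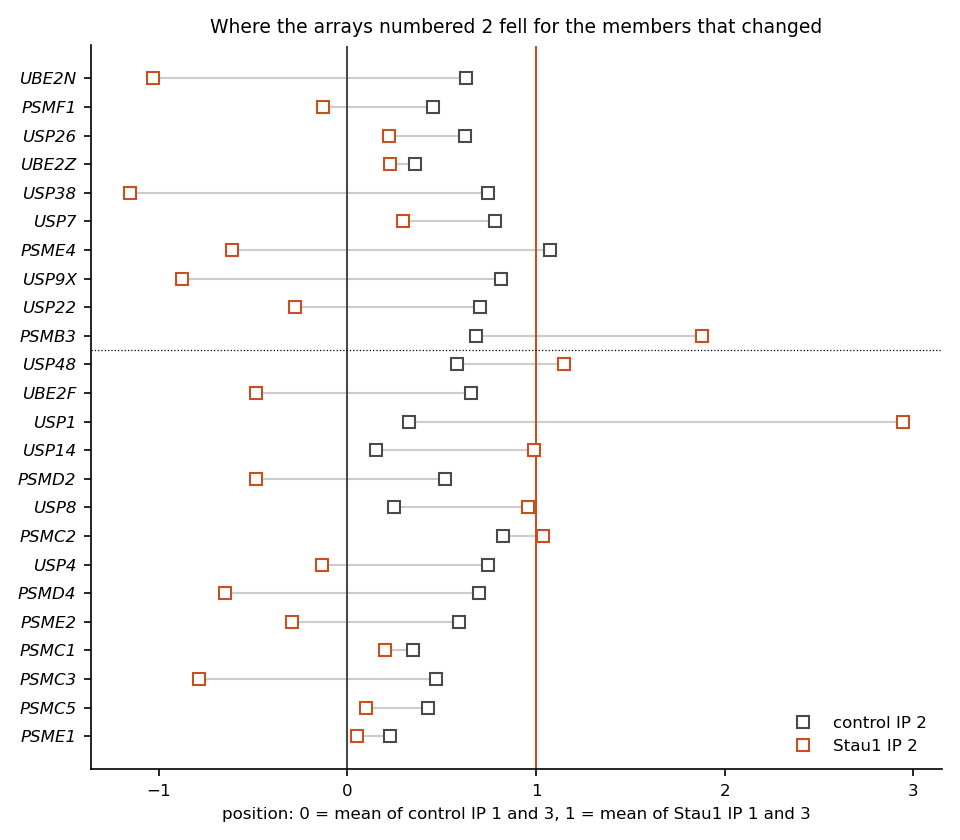
Position of control IP 2 (grey squares) and Stau1 IP 2 (orange squares) for the 24 members that changed without them, on a linear scale where 0 is the mean log2 signal of control IP 1 and 3 and 1 that of Stau1 IP 1 and 3. Above the dotted line are the 10 that rose, where 9 orange squares lie nearer 0 than 1, and below it the 14 that fell, where 9 do.

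The rest of the pathway was read from 62 genes listed by name: ubiquitin and the E1 enzymes (13), proteasome partners (21) and deubiquitinases of other families (28). None passed a 2.5-fold change or an adjusted p under 0.05 with all 6 arrays (limma), and at an unadjusted p under 0.05, 1 was higher and 15 lower, against 4.02% and 4.94% of all targets and 10.2% and 12.6% of targets detected on all 6 arrays. The ubiquitin gene UBB differed by -0.16 (adjusted p = 0.574). OTUD6B, a deubiquitinase of another family, read 357, 372 and 262 in control IP and 197, 142 and 209 in Stau1 IP (log2 fold change -0.77, SE 0.13, adjusted p = 0.188), and UBQLN2, a shuttle to the proteasome, read 2138, 2365 and 1918 in control IP and 1512, 1355 and 1791 in Stau1 IP (log2 fold change -0.47, SE 0.068, adjusted p = 0.157). POMP, the chaperone of beta ring assembly, read 4557, 4134 and 3105 in control IP and 2848, 2795 and 2789 in Stau1 IP (log2 fold change -0.46, SE 0.14, adjusted p = 0.382) though detected on 0 arrays. Without both arrays numbered 2, SAE1, a subunit of the SUMO E1, and the deubiquitinase ZRANB1 rose by 0.83 and 0.45 (adjusted p = 0.0234 and 0.0246). UCHL1, STAMBPL1 and UBA6 fell in that comparison, by 0.47, 0.68 and 0.54 (adjusted p = 0.0331, 0.0439 and 0.0478). UBA6, the E1 that charges UBE2Z, and UBE2Z thus changed in opposite directions there.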

How the data were processed

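RNA from anti-FLAG immunoprecipitates of prometaphase HEK293T cells was read on 6 Illumina HumanWG-6 V3 arrays, 3 control IP and 3 Stau1 IP, grouped by their GEO labels. The authors deposited 1 BeadStudio table with, for each array and 37879 gene-level targets, an intensity that was not normalized, a detection p-value, the bead standard error and the mean number of beads (median 41 beads per target on every array). The deposited detection p-values were used only to say where a target was detected and to find the background. The deposited bead errors were multiplied by the square root of the bead number to give the bead SD, to which the variance was fitted. The genome build is not given in the sources used here, probe sequences were not analysed here, and their number of arrays limits the precision.

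The chain of the study's methods was rebuilt in R 4.3.3. The negative-control median of each array (77.6 to 89.6), taken as the median of the 200 targets with detection p-values nearest the middle of their range, was subtracted. A variance stabilizing transformation was fitted to the bead SD in 500 bins, leaving out the lowest 33.3% of signals, with a background from targets whose detection p was above 0.01. The constant term of its variance was held at the lower limit of 1 for each array, which makes it close to a log2 of signal plus an offset, in which changes of dim targets come out too small. Robust spline normalization to 1 array (control IP 2) used monotone splines with 10 knots (mgcv 1.9.3). Fold changes, SEs and p-values came from limma 3.58.1 (lmFit and eBayes, two-sided), fitted over all targets, with Benjamini-Hochberg adjustment over all of them. Python 3.11.15 and matplotlib 3.10.9 made the plots. The scripts were tested on simulated arrays in which 200 targets, drawn from those detected on all 6 arrays and well above background, were changed 4-fold. With all 6 arrays, 86.5% of them were called at 2.5-fold, and 0 in the wrong direction. The median log2 fold change was 1.84 for rises and -1.48 for falls, so that falls in particular came out too small.

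Members, role lists and pathway lists were chosen by name with earlier results of these data known. Genes named in the text were the 8 with the largest fold change by the labels, the 10 highest and 5 lowest without both arrays numbered 2, members fixed for their role, and STAU1; others were named as examples of their group, or because they were among few that changed, after their values were seen. Some genes are not reported here by name. Alternatives were no background correction, the lumi form of the transformation, neqc, quantile normalization, median centring, a filter on detection, the methods' t-test, a 2-fold threshold, the replicate number as a block, and leaving out arrays. Same-numbered arrays did not deviate together (correlations of their deviations from the group means -0.45, -0.78 and -0.39), and the numbers were not taken to pair the samples. Deviations within each group cancel out, so the arrays numbered 2 shape all of these values. The correlations therefore cannot tell whether the samples were paired.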

Additional observations from a re-analysis of the deposited data

How the results depend on the processing

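With all 6 arrays, the count of members called at 2.5-fold stayed at 0 in each direction under every alternative except the lumi form of the transformation. Under that form 1 member was depleted (PSMA3, log2 fold change -1.34, against -0.73 in the main fit) and 1 gene of the pathway lists was called. The deposited signals of PSMA3, given above, differ by less than 2.5-fold between the groups. The count with an adjusted p under 0.05 stayed at 0 except without both arrays numbered 2, where it was 24. The median log2 fold change of the 103 members detected on at least 3 arrays (-0.057) lay between -0.12 (median centring) and -0.016 (neqc). The 10 members that rose and 14 that fell without both arrays numbered 2 became 4 and 5 under the lumi form, 1 and 2 under neqc, and 0 and 0 by the methods' t-test. These settings combined with leaving out those arrays were chosen after seeing the data. Leaving out 1 more array, which sets 1 array against 2 with the spread from the pair that is left, the counts ran from 0 to 24 higher and from 0 to 39 lower: 0 of each without Stau1 IP 1 or Stau1 IP 3, 29 lower without control IP 1, and 24 higher and 39 lower without control IP 3. All 24 had the same direction under the 5 other transformations and scalings, of which leaving out the background correction gave the same 24 calls. With the replicate number as a block, the counts were 0 with all arrays, and 8 higher and 14 lower without the arrays numbered 2. Of the alternatives for single genes, 411 kept direction and side of the threshold, and 20, in 6 genes with fold changes near 0, reversed. Many of the 411 could not differ in direction. No background correction, the replicate block, the methods' t-test and the detection filter left the log2 fold changes as they were. The tally is therefore no measure of robustness. Sizes moved more than directions: under neqc USP14 went from -0.44 to -0.10, USP16 from -0.79 to -0.21, USP1 from -0.59 to -0.16, USP26 from 0.53 to 0.12 and USP7 from 0.37 to 0.16, while PSMA3 and PSMA1 were -1.14 and -1.05. The 19S ATPase median went from -0.37 to -0.70 under the lumi form. Under median centring UBE2N, USP38 and PSME4 were -0.011, -0.032 and -0.021. Without both arrays numbered 2, STAU1 was 0.066. Leaving out 1 array at a time gave log2 fold changes from -0.27 to 0.86 for UBE2N, -0.30 to 0.57 for USP38, -0.17 to 0.44 for PSME4, -0.20 to 0.45 for USP9X, -0.0014 to 0.16 for UBE2D1 and -0.25 to 0.027 for STAU1, the highest of the first 4 without Stau1 IP 2. The cause of these changes was not tested. Near background (signals about 100 or below) these arrays cannot show a difference.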
